A study of Mus musculus with 8 samples.

Results

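The 33 genes described here encode proteins that work in or at the lysosome: 9 cysteine cathepsins, 4 other proteases and carriers, 8 glycoside hydrolases, 2 proteins of sphingolipid breakdown, 5 membrane proteins, 4 proteins of the ion channel and proton pump, and the transcription factor Tfeb. They were chosen by name, with earlier results of these data known, and all 33 were found among the 21997 genes listed in both deposited count tables. RNA came from single ovarian follicles of C57BL/6 mice, separated by needle, with 1 library per follicle. Follicles were small antral (SAF, with a fluid-filled cavity) or preantral (PF, the earlier stage without it). Their source was a transplant of female germline stem cells, called TF, or a wild type animal, called WT. The 4 groups, SAF-TF, PF-TF, SAF-WT and PF-WT, had 2 libraries each. The labels leave out the host animals, their ages, and which cells in a TF follicle are descended from the graft. Levels are read counts scaled to the library total with TMM factors (CPM), and every group mean is over n = 2 libraries with its SD.

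Lysosomes are acidic compartments in which proteins, glycans and lipids are broken down by hydrolases. The hydrolases are made in the endoplasmic reticulum and carried to the lysosome through the Golgi, many of them by a mannose 6-phosphate tag. A proton pump, the V-ATPase, keeps the lumen acid, and heavily glycosylated membrane proteins line it. TFEB and its relatives are transcription factors that bind E-box letters known as the CLEAR motif before many lysosomal genes. In the ovary, cathepsins and other lysosomal proteins are known from atretic follicles, from the corpus luteum and from macrophages.

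Total counts ran from 7656108 to 9805287 per library, and between 18796 and 20694 genes had at least 1 count. Marker genes did not all follow the labels, and the SAF-TF follicles stood apart by luteal genes. Akr1c18, the progesterone-degrading enzyme of the regressing corpus luteum, had 10512 and 11329 CPM in SAF-TF and at most 7.08 CPM in any other library. Summed CPM of 12 luteal markers were 16763 to 23296 in SAF-TF and 158 in each PF-TF library, against 475 to 491 in SAF-WT and 179.9 to 214 in PF-WT, and 11 of the 12 were higher in SAF-TF than in SAF-WT. Of 16 oocyte markers, the summed level was 286 to 577 CPM in SAF-TF and 20349 to 24793 CPM in PF-TF, against 558 to 3045 CPM in SAF-WT and 9645 to 11523 CPM in PF-WT. Granulosa markers, 13 in number, summed to 2317 to 3639 CPM in SAF-TF and 3897 to 4538 CPM in PF-TF, against 1444 to 1503 CPM in SAF-WT and 3108 to 4040.1 CPM in PF-WT. The part of these marker differences in the results below was not tested. In bulk follicles, fewer cells of a type and less RNA per cell cannot be told apart.

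In small antral follicles, 11 of the 33 lysosomal genes differed between TF and WT. By edgeR's quasi-likelihood test, adjusted over all 17925 genes tested, 10 of the 33 genes were higher in SAF-TF than in SAF-WT and 1 was lower. Of all genes tested, 4.61% were called higher and 5.34% lower. The higher genes were the cathepsins Ctsb, Ctsf, Ctsh, Ctsa and Ctsd, the progranulin gene Grn, the glycosidases Glb1 and Naglu, the saposin precursor Psap and the membrane protein Lamp1, and the lower gene was Cd63. The median log2 fold change was 0.90 over the 33 genes and 0.00 over all genes tested. In 28 of the 33 genes both SAF-TF libraries lay above both SAF-WT libraries, and in 2 both lay below. The shares of all genes were 31.3% and 32.5%. With 2 libraries per group these calls were fragile. Every one of these calls was lost when SAF-TF replicate 1 or SAF-WT replicate 1 was left out. Without SAF-WT replicate 2 all but that of Ctsd were lost, and without SAF-TF replicate 2 those of Cd63, Ctsh, Glb1 and Grn. A fit of the 4 SAF libraries alone called 20 higher. The share of all genes called in that fit is not given, so this count cannot be set against the 4.61%.

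In preantral follicles, none of the 33 genes passed the same test between TF and WT, with 0 higher and 0 lower. Of all genes tested, 0.0669% were called higher and 0.151% lower. At an unadjusted p under 0.05, 13 of the 33 genes differed, against 20.7% of all genes, and 12 of the 13 had a higher level in PF-TF. The DESeq2 Wald test called 7 higher and 1 lower, with 1.83% and 5.60% of all genes. The median log2 fold change was 0.73 over the 33 genes, against -0.03 over all genes. Both PF-TF libraries lay above both PF-WT libraries for 21 genes and below them for 2, where the shares of all genes were 22.9% and 26.1%. The edgeR counts changed without PF-WT replicate 2 and without PF-TF replicate 2. The shares of all genes called in those fits are not given, so their counts cannot be set against the shares above. 

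Between stages, 14 of the 33 genes rose and 2 fell in SAF-TF relative to PF-TF, where 18.2% of all genes rose and 25.0% fell. In WT, 7 rose and 1 fell in SAF-WT relative to PF-WT, where 12.7% of all genes rose and 22.5% fell. The cathepsins Ctsc and Ctsk and the membrane proteins Lamp2, Cd63, Scarb2 and Laptm4a rose in both sources, and Ctsh fell in both. A further 9 genes passed only in TF, 1 (Asah1) only in WT, and 16 in neither. The median log2 fold change was 0.80 in TF and 0.15 in WT, against -0.08 and -0.20 over all genes. Both SAF follicles lay above both PF follicles for 19 genes in TF and 14 in WT, where 34.8% and 30.9% of all genes did, and below them for 4 and 7, where 39.5% and 40.0% did. Without SAF-TF replicate 1 the count of genes that rose in TF was 6, and without SAF-TF replicate 2 the count that fell was 1. In WT, 4 rose without SAF-WT replicate 1, 3 fell without SAF-WT replicate 2, and 2 fell without SAF-TF replicate 1 or SAF-TF replicate 2. Fitted on the 4 WT libraries alone, without any SAF-TF library, 6 rose and 1 fell. The shares of all genes called in these refits, with libraries left out or WT alone, are not given. Their counts therefore cannot be set against the shares above.

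The difference between these stage effects, the interaction of stage and source, passed for none of the 33 genes, with 0 higher and 0 lower, while 0.658% of all genes had a stage effect called higher in TF and 0.245% one called lower. At an unadjusted p under 0.05 there were 6, against 15.4% of all genes, and 4 of the 6 were higher in TF, while the DESeq2 Wald test called 1 higher, Ctsc (2.86% of all genes). The edgeR count changed without PF-TF replicate 1 or PF-TF replicate 2, in fits whose shares of all genes are not given. A gene past the threshold in only one source is therefore not shown to differ between sources.

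**Figure D1:**
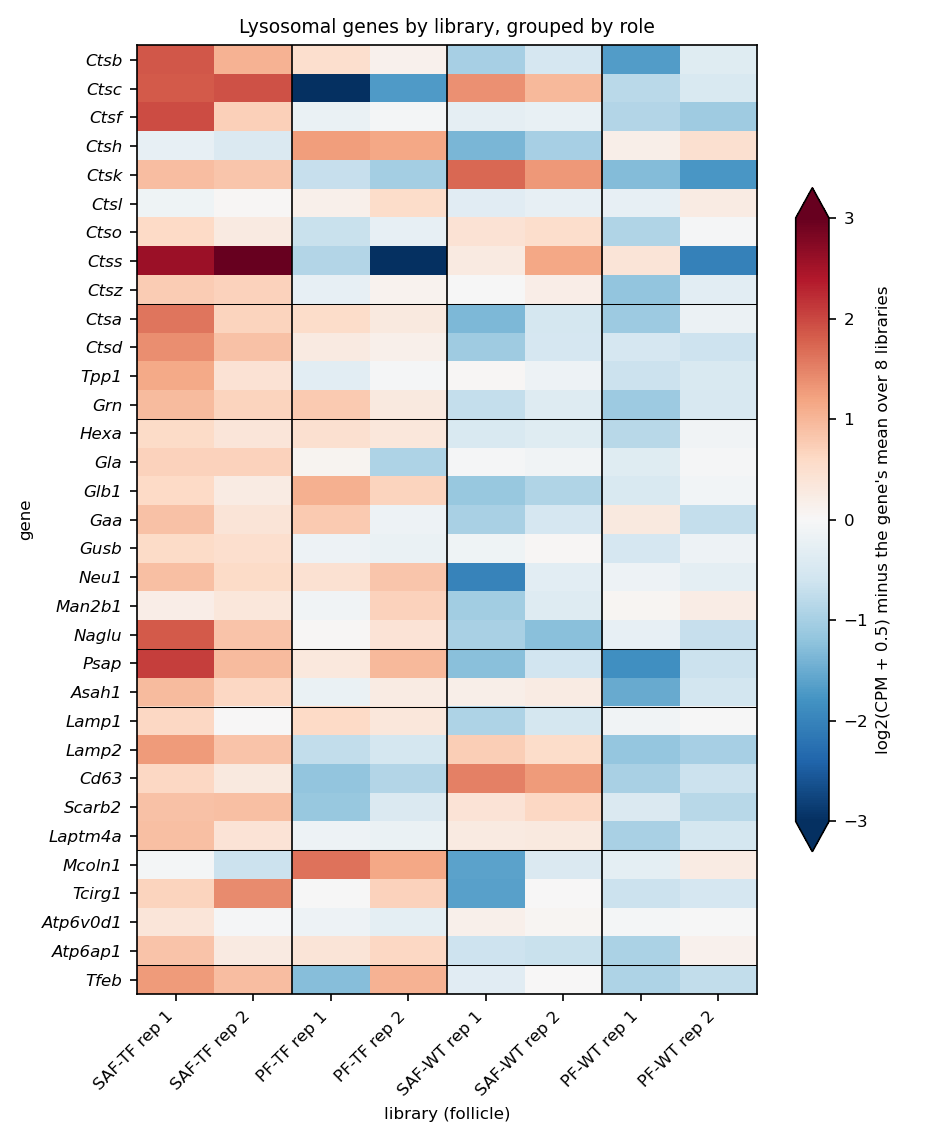
Level of each of the 33 lysosomal genes (rows, grouped by role) in each of the 8 libraries (columns), as log2(CPM + 0.5) minus the gene's mean over the libraries. Most rows are red in the SAF-TF columns. By mean CPM, Ctsh, Mcoln1, Ctsl, Glb1, Lamp1 and Man2b1 are highest in PF-TF, and Ctsk, Cd63 and Ctso in SAF-WT.

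The 9 cysteine cathepsins are papain-like proteases, and they held both the genes with the steepest stage effects and genes that barely moved. In SAF-TF relative to PF-TF 6 of the 9 rose and 1 fell (18.2% and 25.0% of all genes), and in SAF-WT relative to PF-WT 2 rose and 1 fell (12.7% and 22.5% of all genes). In SAF-TF relative to SAF-WT 3 of the 9 were higher, against 4.61% of all genes. Ctsc encodes the dipeptidyl peptidase that activates granule proteases of immune cells (chr7:88278024-88315861, GRCm38). It had 90.8 and 95.2 CPM in SAF-TF and 2.43 and 7.32 CPM in PF-TF, against 65.8 and 50.04 CPM in SAF-WT and 14.03 and 18.2 CPM in PF-WT. Both stages stood apart in both sources, and the PF-TF follicles were the lowest of all. The stage effect was a log2 fold change of 4.24 ± 0.46 (SE) in TF (adjusted p = 1.14e-04) and 1.84 ± 0.41 in WT (adjusted p = 0.00723). Between sources, Ctsc was 0.68 ± 0.39 in SAF (adjusted p = 0.276) and -1.71 ± 0.43 in PF (adjusted p = 0.0778).

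Ctsk and Ctss lie next to each other on chromosome 3 (chr3:95499210-95509387 and chr3:95526786-95556405, GRCm38) and had different patterns. Ctsk, the collagen-degrading cathepsin of osteoclasts and fibroblasts, had 18.8 and 17.6 CPM in SAF-TF and 5.86 and 4.51 CPM in PF-TF, against 32.99 and 24.5 CPM in SAF-WT and 3.67 and 2.55 CPM in PF-WT. It was highest in SAF-WT, and no groups overlapped. It rose by 1.81 ± 0.35 (log2, SE) in TF (adjusted p = 0.00284) and by 3.21 ± 0.38 in WT (adjusted p = 2.93e-04). Ctss, the cathepsin that trims the invariant chain in antigen-presenting cells, had 75.6 and 117 CPM in SAF-TF and 6.53 and 0 CPM in PF-TF, against 15.1 and 28.5 CPM in SAF-WT and 16.4 and 2.66 CPM in PF-WT. PF-TF replicate 2 had no count, which allows up to 0.301 CPM, and the WT stages overlapped. Ctss rose by 4.90 ± 1.20 in TF (adjusted p = 0.00885). Without PF-TF replicate 1 the only PF-TF library left has no Ctss count, and the fitted value of 12.80 then depends on the prior count and measures no size. The Ctss value in WT was 1.21 ± 1.04 (adjusted p = 0.395). The source difference in SAF was 2.14 ± 1.02 (adjusted p = 0.202).

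Markers of several other cell types differed between the same groups. Summed CPM of 20 macrophage and immune markers were 1446 and 1919 in SAF-TF and 116 and 83.9 in PF-TF, against 399 and 493 in SAF-WT and 639 and 137 in PF-WT. Of these markers, 18 rose in SAF-TF relative to PF-TF, 3 rose in SAF-WT relative to PF-WT and 7 were higher in SAF-TF than in SAF-WT. None of the defining markers Cd68, Csf1r, C1qa and Lyz2 was at 0 in any library, while Ptprc was at 0 in PF-TF replicate 2, and Cx3cr1 and Itgam were at 0 in PF-TF replicate 1 and PF-WT replicate 2. Summed CPM of 10 stroma and fibroblast markers were 2346 and 1642 in SAF-TF and 83.7 and 161 in PF-TF, against 8375 and 5995 in SAF-WT and 552 and 260.0 in PF-WT, and none of these markers was at 0. Of the stroma markers, 9 rose with stage in TF, 9 rose and 1 fell in WT, and between SAF-TF and SAF-WT 1 was higher and 3 lower. Ogn alone, a small proteoglycan, had 458 and 355 CPM in SAF-TF and 7.85 and 28.2 CPM in PF-TF, against 4886 and 2945 CPM in SAF-WT and 149 and 55.2 CPM in PF-WT. The macrophage sum, like Ctss, was highest in SAF-TF, and so were the luteal and theca sums. The stroma sum, like Ctsk, was highest in SAF-WT, but in PF it was lower in TF than in WT, where Ctsk was higher in TF. Other marker sums also differed between the groups. The 10 theca and interstitial markers summed to 15362 to 26740.5 CPM in SAF-TF and 1715 to 3030.0 CPM in PF-TF, against 4580.2 to 5542 CPM in SAF-WT and 1005 to 1138 CPM in PF-WT. Of these theca markers, 4 were higher and 4 lower in SAF-TF than in SAF-WT, with a median log2 fold change of 0.17. Hsd3b1 alone had 15028 and 10473 CPM in SAF-TF, against 3769.5 and 3075 CPM in SAF-WT. Lhcgr, Star and Cyp11a1 are in both the theca and the luteal list, so these sums are not separate. The 8 smooth muscle and pericyte markers summed to 1157 to 1764 CPM in SAF-TF and 81.3 to 96.5 CPM in PF-TF, against 2353 to 2800.5 CPM in SAF-WT and 174 to 575 CPM in PF-WT. The 10 endothelial markers gave 84.5 to 127 CPM in SAF-TF and 22.6 to 23.9 CPM in PF-TF, against 174 to 201 CPM in SAF-WT and 26.9 to 34.9 CPM in PF-WT. The 8 surface epithelium markers gave 221 to 334 CPM in SAF-TF and 46.1 to 62.4 CPM in PF-TF, against 118 to 229 CPM in SAF-WT and 68.9 to 72.6 CPM in PF-WT. The theca, smooth muscle, endothelial and surface epithelium sums were higher in SAF than in PF in both sources. The smooth muscle and endothelial sums, like Ctsk, were highest in SAF-WT. In PF both sums were lower in TF than in WT, where Ctsk was higher in TF. The part of any marker list in the cathepsin values was not tested.

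**Figure D2:**
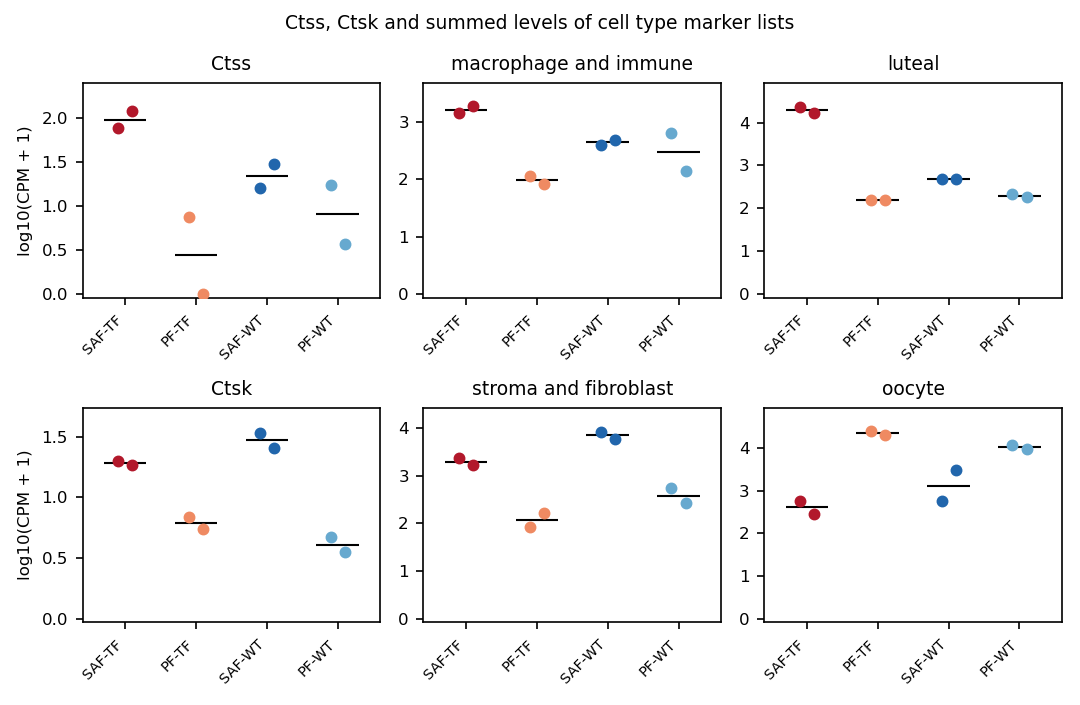
Ctss and Ctsk beside the summed levels of macrophage and immune, luteal, stroma and fibroblast, and oocyte markers, as log10(CPM + 1) per library (points, 2 per group) with the mean of the 2 log values (lines). Ctss and the macrophage and luteal sums are highest in SAF-TF, Ctsk and the stroma sum in SAF-WT.

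Ctsb, an endo- and exopeptidase found in most cells (chr14:63122462-63145923), was the cathepsin with the largest called difference between sources in SAF. It had 738 and 421 CPM in SAF-TF and 288 and 222 CPM in PF-TF, against 102 and 143 CPM in SAF-WT and 63.3 and 158 CPM in PF-WT. Each TF follicle lay above all 4 WT follicles, and the WT stages overlapped. Ctsb was higher by 2.24 ± 0.43 (log2, SE) in SAF-TF than in SAF-WT (adjusted p = 0.0155) and rose by 1.18 ± 0.41 in SAF-TF relative to PF-TF (adjusted p = 0.0424), against 0.15 ± 0.41 between the WT stages (adjusted p = 0.805). In PF the source difference was 1.20 ± 0.42 (adjusted p = 0.147). The TF stage call was lost in 5 of 14 alternatives, with 1.19 (adjusted p = 0.0592) under the replicate block and 0.73 (adjusted p = 0.270) without SAF-TF replicate 1. The strand setting of the counts is not known, and 16.3% of the exon bases of Ctsb lie opposite Fdft1, a gene of sterol synthesis with mean levels of 125 ± 38.1 CPM in SAF-TF and 491 ± 60.7 CPM in PF-TF, against 77.2 ± 14.3 CPM in SAF-WT and 425 ± 7.09 CPM in PF-WT.

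Ctsh, an aminopeptidase (chr9:90054267-90076095), went the other way with stage. It had 59.97 and 52.4 CPM in SAF-TF and 170.4 and 161 CPM in PF-TF, against 27.4 and 35.7 CPM in SAF-WT and 80.4 and 99.2 CPM in PF-WT. No groups overlapped, and the order was PF-TF, PF-WT, SAF-TF and SAF-WT from high to low. Ctsh fell in SAF-TF relative to PF-TF (log2 fold change -1.56 ± 0.23 SE, adjusted p = 5.76e-04) and in SAF-WT relative to PF-WT (-1.51 ± 0.23, adjusted p = 0.00111). It was higher in SAF-TF than in SAF-WT by 0.83 ± 0.23 (adjusted p = 0.0477), and in PF the difference was 0.88 ± 0.22 (adjusted p = 0.0780). The SAF call was lost with RLE factors (0.78, adjusted p = 0.0515), without the low-count filter, with the replicate block and whenever 1 of the 4 SAF libraries was left out.

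Ctsl, an endopeptidase induced in granulosa cells around ovulation (chr13:64361890-64370772), differed little. It had 804 and 908 CPM in SAF-TF and 973 and 1292 CPM in PF-TF, against 696 and 742 CPM in SAF-WT and 741 and 1048 CPM in PF-WT. Its log2 differences between groups ran from -0.40 ± 0.22 (TF stages, adjusted p = 0.172) to 0.34 ± 0.22 (PF sources, adjusted p = 0.423), and none passed. Of its exon bases, 28.2% lie opposite the antisense gene Gm47123. Ctsf averaged 24.9 ± 14.6 CPM in SAF-TF and 7.92 ± 0.563 CPM in PF-TF, against 7.22 ± 0.164 CPM in SAF-WT and 4.17 ± 0.410 CPM in PF-WT. It rose by 1.65 ± 0.44 (SE) with stage in TF (adjusted p = 0.0130) and was higher by 1.79 ± 0.44 in SAF-TF than in SAF-WT (adjusted p = 0.0360). Its replicates in SAF-TF, 35.3 and 14.6 CPM, were far apart, and without replicate 1 the differences were 0.89 (adjusted p = 0.193) and 1.03 (adjusted p = 0.364).

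Ctsz, a carboxypeptidase, averaged 120.2 ± 4.63 CPM in SAF-TF and 69.2 ± 11.5 CPM in PF-TF, against 76.9 ± 7.84 CPM in SAF-WT and 44.5 ± 18.6 CPM in PF-WT. It rose by 0.80 ± 0.29 in TF (adjusted p = 0.0485), and the difference between the WT stages was 0.79 ± 0.29 (adjusted p = 0.0603). The TF call was lost in 6 of 14 alternatives, among them edgeR without the low-count filter (adjusted p = 0.0554) and the fits without either SAF-TF library. Ctso had nearly the same level in both sources, with 42.3 ± 7.04 CPM in SAF-TF and 22.7 ± 4.67 CPM in PF-TF, against 43.3 ± 2.47 CPM in SAF-WT and 23.3 ± 9.80 CPM in PF-WT. Its stage values, 0.90 ± 0.33 in TF (adjusted p = 0.0525) and 0.89 ± 0.33 in WT (adjusted p = 0.0632), did not pass.

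**Figure D3:**
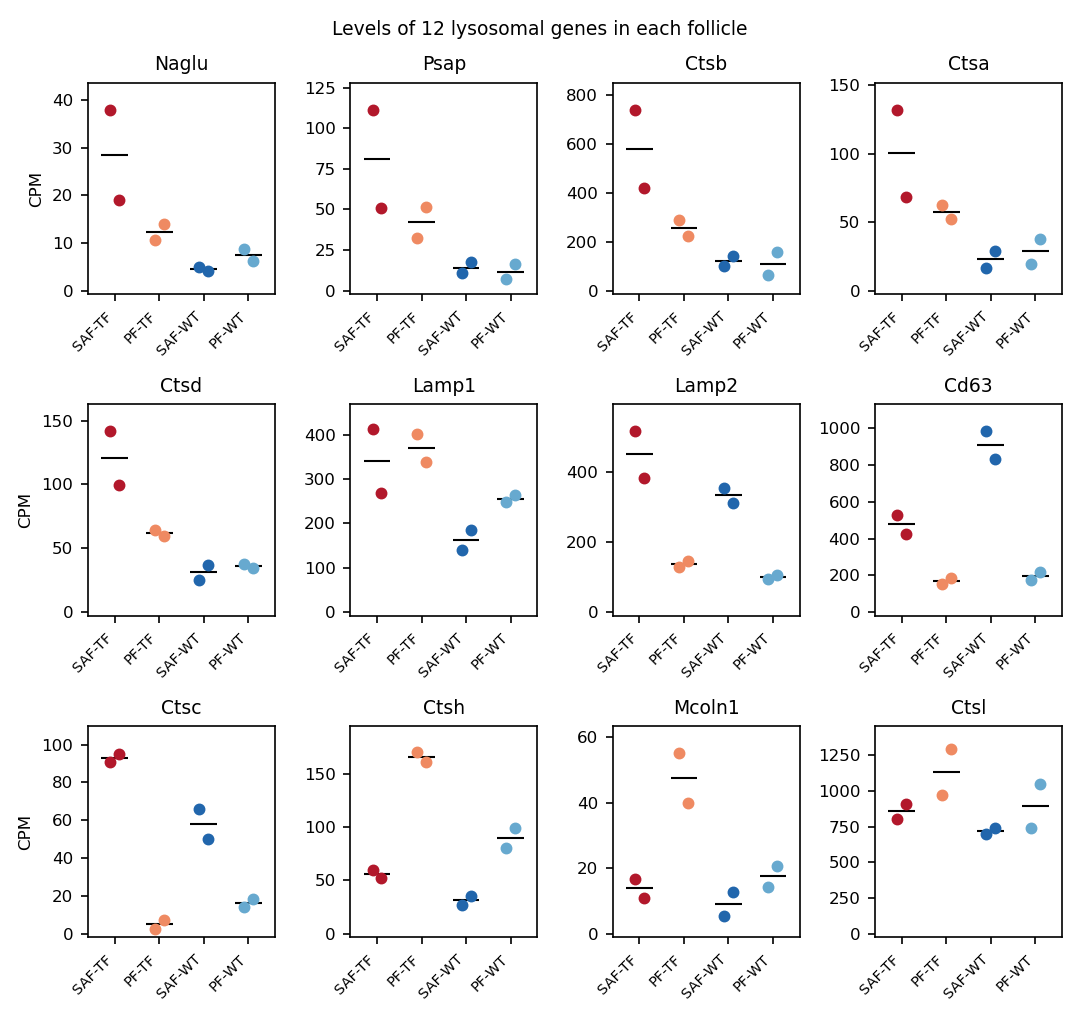
CPM of 12 lysosomal genes in each follicle (points) with the group mean (lines), n = 2 per group. Naglu, Psap, Ctsb, Ctsa and Ctsd are highest in SAF-TF, Cd63 is highest in SAF-WT, and Ctsh and Mcoln1 are highest in PF-TF.

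Among the other proteases and carriers, 3 of 4 were higher in SAF-TF than in SAF-WT (4.61% of all genes), 2 of 4 rose with stage in TF (18.2% of all genes) and none of 4 passed between the WT stages. Ctsd, the main aspartic protease of lysosomes (chr7:142375910-142387827), had the smallest p of the 33 genes between SAF-TF and SAF-WT. It had 142 and 99.4 CPM in SAF-TF and 64.5 and 59.4 CPM in PF-TF, against 25.5 and 37.3 CPM in SAF-WT and 37.5 and 34.6 CPM in PF-WT. All TF follicles lay above all WT follicles, and SAF-TF above PF-TF. Ctsd was higher by 1.94 ± 0.27 (log2, SE) in SAF-TF than in SAF-WT (adjusted p = 0.00539) and rose by 0.96 ± 0.26 in SAF-TF relative to PF-TF (adjusted p = 0.0152), beside -0.20 ± 0.27 between the WT stages (adjusted p = 0.592). The interaction was 1.16 ± 0.37 (adjusted p = 0.178). Of its exon bases, 31.5% are shared on the same strand with the annotated gene Gm49369.

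Ctsa, the carboxypeptidase that protects beta-galactosidase and neuraminidase in a complex (chr2:164832872-164841032), had 132 and 68.6 CPM in SAF-TF and 62.8 and 52.01 CPM in PF-TF, against 16.6 and 29.3 CPM in SAF-WT and 19.8 and 38.01 CPM in PF-WT. The TF follicles again lay above every WT follicle. It was higher by 2.12 ± 0.43 in SAF-TF than in SAF-WT (adjusted p = 0.0185). The partners named in that complex, Glb1 and Neu1, are also in the set and are given below. Its neighbours Pltp and Neurl2 lie opposite 13.5% and 8.82% of its exon bases, with means of 15.5 ± 7.12 and 5.37 ± 2.34 CPM in SAF-TF, against 6.11 ± 0.273 and 4.97 ± 2.01 CPM in SAF-WT. Grn, the precursor of the lysosomal granulins, averaged 65.8 ± 8.50 CPM in SAF-TF and 54.6 ± 13.2 CPM in PF-TF, against 25.4 ± 4.28 CPM in SAF-WT and 21.9 ± 6.83 CPM in PF-WT. Its source differences were nearly equal at the stages, 1.38 ± 0.31 in SAF (adjusted p = 0.0257) and 1.32 ± 0.31 in PF (adjusted p = 0.0720), with an interaction of 0.06 ± 0.43 (adjusted p = 0.981). Tpp1, a tripeptidyl peptidase, averaged 71.3 ± 24.8 CPM in SAF-TF and 35.5 ± 4.81 CPM in PF-TF, against 38.3 ± 3.82 CPM in SAF-WT and 27.2 ± 2.71 CPM in PF-WT. It rose by 1.01 ± 0.29 with stage in TF (adjusted p = 0.0188), and between SAF sources the difference was 0.90 ± 0.29 (adjusted p = 0.0770). The TF stage call was lost without SAF-TF replicate 1, where the value was 0.61, and without PF-TF replicate 1, where it was 0.98.

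The 8 glycoside hydrolases remove sugars from glycans and glycolipids. In SAF-TF relative to SAF-WT all 8 had a positive log2 fold change, between 0.59 and 2.65, as did 8849 of the 17925 genes tested. Of the 8, 2 passed (4.61% of all genes were called higher). With stage, 2 of 8 rose in TF, near the 18.2% of all genes, and none of the 8 passed in WT. Naglu, which acts on heparan sulfate (chr11:101070090-101077672), had the largest log2 fold change of the 33 genes between SAF-TF and SAF-WT. It had 37.9 and 19.03 CPM in SAF-TF and 10.6 and 13.9 CPM in PF-TF, against 5.04 and 4.02 CPM in SAF-WT and 8.65 and 6.21 CPM in PF-WT. In TF the SAF follicles were the higher ones and in WT the lower ones, without overlap. Naglu was higher by 2.65 ± 0.43 (log2, SE) in SAF-TF than in SAF-WT (adjusted p = 0.00930). It rose by 1.21 ± 0.41 in SAF-TF relative to PF-TF (adjusted p = 0.0357), and the value between the WT stages was -0.71 ± 0.43 (adjusted p = 0.229).

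Glb1, the lysosomal beta-galactosidase (chr9:114401078-114474379), had 21.5 and 16.6 CPM in SAF-TF and 29.8 and 22.3 CPM in PF-TF, against 6.07 and 7.22 CPM in SAF-WT and 10.1 and 13.2 CPM in PF-WT. Each TF follicle exceeded each WT follicle, and in both sources the PF follicles were the higher ones. The source difference was 1.52 ± 0.34 in SAF (adjusted p = 0.0256) and 1.16 ± 0.33 in PF (adjusted p = 0.0989). Neu1, the sialidase, averaged 13.05 ± 2.21 CPM in SAF-TF and 12.2 ± 2.20 CPM in PF-TF, against 3.70 ± 3.13 CPM in SAF-WT and 6.39 ± 0.419 CPM in PF-WT, and its difference in SAF was 1.82 ± 0.56 (adjusted p = 0.0688). Gusb, the beta-glucuronidase, averaged 35.9 ± 1.17 CPM in SAF-TF and 21.6 ± 0.612 CPM in PF-TF, against 23.8 ± 2.02 CPM in SAF-WT and 19.4 ± 3.38 CPM in PF-WT, and rose by 0.73 ± 0.27 in TF (adjusted p = 0.0494). That call was lost in 8 of 14 alternatives: without the low-count filter (adjusted p = 0.0667), with the replicate block (0.0713) and whenever a SAF-TF, PF-TF or SAF-WT library was left out.

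Gaa, Gla, Hexa and Man2b1 passed no test. Gaa, the glycogen-degrading alpha-glucosidase, averaged 23.6 ± 5.79 CPM in SAF-TF and 19.7 ± 8.95 CPM in PF-TF, against 8.75 ± 2.17 CPM in SAF-WT and 13.4 ± 6.60 CPM in PF-WT. Hexa, the alpha subunit of beta-hexosaminidase A, averaged 57.8 ± 5.66 CPM in SAF-TF and 55.1 ± 3.69 CPM in PF-TF, against 31.2 ± 1.37 CPM in SAF-WT and 30.8 ± 10.7 CPM in PF-WT. Its log2 differences between the sources were 0.89 ± 0.28 in SAF (adjusted p = 0.0724) and 0.84 ± 0.28 in PF (adjusted p = 0.136). Man2b1, an alpha-mannosidase, had 0.99 ± 0.38 in SAF (adjusted p = 0.123) and 0.21 ± 0.37 in PF (adjusted p = 0.802), and Gla, the alpha-galactosidase, 0.81 ± 0.44 (adjusted p = 0.250) and -0.16 ± 0.44 (adjusted p = 0.882).

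Psap encodes prosaposin, which is cut into the saposins that present sphingolipids to their hydrolases (chr10:60277628-60302600). It had 111 and 50.6 CPM in SAF-TF and 32.6 and 51.7 CPM in PF-TF, against 10.7 and 17.5 CPM in SAF-WT and 6.95 and 16.6 CPM in PF-WT. The TF follicles lay above all WT follicles, while the stages overlapped in both sources. Psap was higher by 2.52 ± 0.51 (log2, SE) in SAF-TF than in SAF-WT (adjusted p = 0.0190), and the difference in PF was 1.83 ± 0.51 (adjusted p = 0.0937). Without SAF-TF replicate 1, the higher of the SAF-TF follicles, the SAF difference was 1.85 (adjusted p = 0.165). Asah1, the acid ceramidase that works with these saposins, averaged 352 ± 54.4 CPM in SAF-TF and 208 ± 43.5 CPM in PF-TF, against 236 ± 7.43 CPM in SAF-WT and 105 ± 48.2 CPM in PF-WT. It rose by 1.17 ± 0.31 in SAF-WT relative to PF-WT (adjusted p = 0.0158), and in TF the value was 0.75 ± 0.30 (adjusted p = 0.0695).

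**Figure D4:**
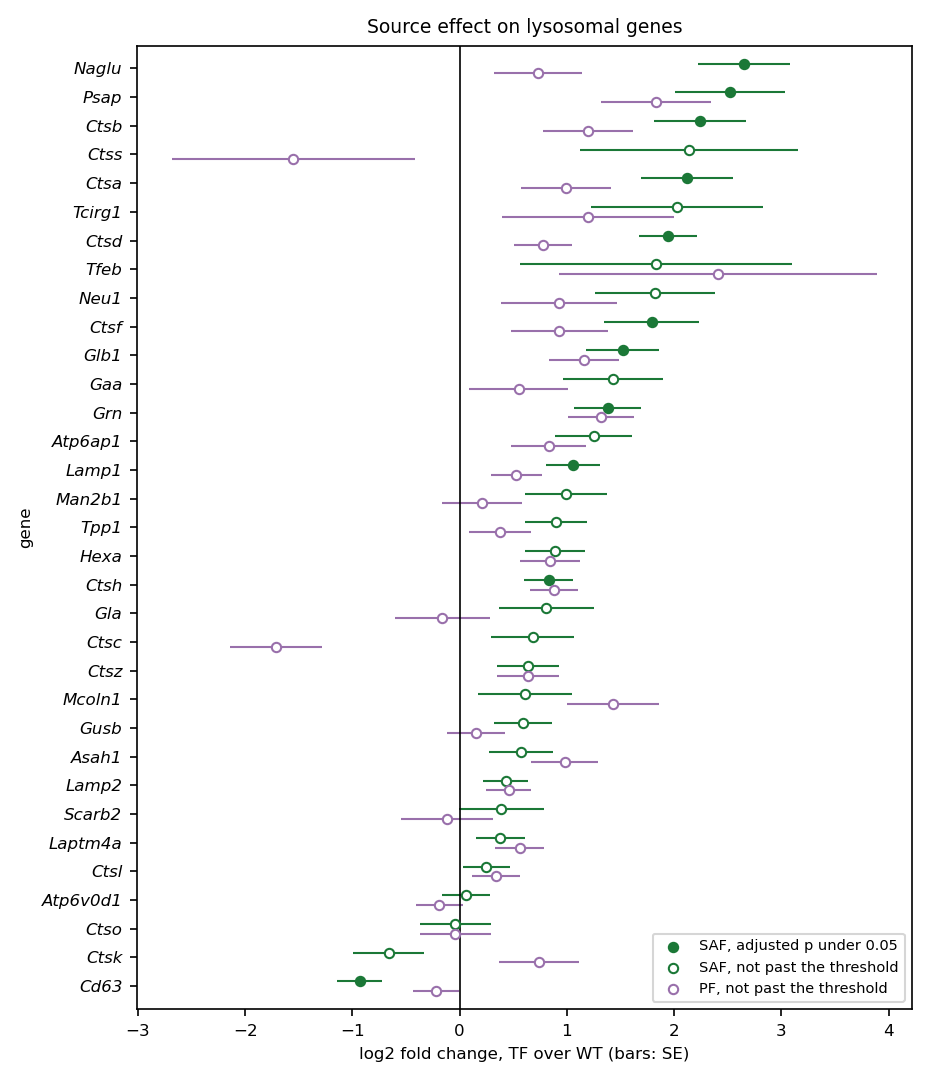
Log2 fold change of TF over WT (points) with its SE (bars) for each of the 33 genes, in SAF and in PF, from edgeR. Filled points passed an adjusted p of 0.05: 11 in SAF and 0 in PF.

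The 5 lysosomal membrane proteins line the organelle or pass through it. With stage 4 of 5 rose in TF and the same 4 in WT (18.2% and 12.7% of all genes). Between SAF-TF and SAF-WT 1 was higher and 1 lower (4.61% and 5.34% of all genes). Lamp2, which also serves chaperone-mediated autophagy (chrX:38399647-38456460), had 518 and 383 CPM in SAF-TF and 128 and 147 CPM in PF-TF, against 356 and 312 CPM in SAF-WT and 94.01 and 106 CPM in PF-WT. The stages were far apart in both sources. Its stage effects were nearly equal, 1.71 ± 0.22 (log2, SE) in TF (adjusted p = 2.62e-04) and 1.74 ± 0.22 in WT (adjusted p = 3.86e-04), with an interaction of -0.03 ± 0.30 (adjusted p = 0.991). Lamp1, the paralog of Lamp2 and with it among the most abundant proteins of the lysosomal membrane (chr8:13159161-13175338), had 412 and 269 CPM in SAF-TF and 402 and 338 CPM in PF-TF, against 141 and 185 CPM in SAF-WT and 249 and 263 CPM in PF-WT. Here the stages overlapped in TF, and in WT the SAF follicles were the lower ones. Lamp1 was higher by 1.06 ± 0.25 in SAF-TF than in SAF-WT (adjusted p = 0.0296), whereas the stage values were -0.12 ± 0.24 in TF (adjusted p = 0.717) and -0.65 ± 0.25 in WT (adjusted p = 0.0654). Of the exon bases of Lamp1, 7.94% lie opposite Grtp1, which averaged 20.5 ± 4.35 CPM in SAF-TF and 13.3 ± 0.715 CPM in SAF-WT.

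Cd63, a tetraspanin of late endosomes, lysosomes and exosomes (chr10:128896231-128912822), was the only one of the 33 genes called lower in SAF-TF than in SAF-WT. It had 529.5 and 424 CPM in SAF-TF and 153 and 187 CPM in PF-TF, against 984 and 834 CPM in SAF-WT and 177 and 220.0 CPM in PF-WT. The SAF groups lay apart with SAF-WT on top, and the PF groups overlapped. Cd63 rose by 1.49 ± 0.22 in TF (adjusted p = 5.96e-04) and by 2.19 ± 0.22 in WT (adjusted p = 1.44e-04), and its difference between the SAF sources was -0.93 ± 0.21 (adjusted p = 0.0285). That last call was lost with the replicate block (-0.93, adjusted p = 0.0578) and whenever 1 of the 4 SAF libraries was left out. Scarb2, an integral protein of the lysosomal membrane, had 13.2 and 13.4 CPM in SAF-TF and 2.88 and 5.01 CPM in PF-TF, against 9.39 and 10.9 CPM in SAF-WT and 4.98 and 3.66 CPM in PF-WT. It rose by 1.75 ± 0.42 in TF (adjusted p = 0.00815) and by 1.23 ± 0.42 in WT (adjusted p = 0.0448). The WT call was lost in 9 of 14 alternatives, among them the fit of the 4 WT libraries alone (adjusted p = 0.0554), the replicate block (0.0678) and the counts without the low-count filter (0.0560). Laptm4a had 364 and 258 CPM in SAF-TF and 175 and 169.8 CPM in PF-TF, against 236 and 241 CPM in SAF-WT and 98.6 and 135 CPM in PF-WT. It rose by 0.85 ± 0.23 in TF (adjusted p = 0.0147) and by 1.03 ± 0.23 in WT (adjusted p = 0.00787), without overlap of the stages in either.

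**Figure D5:**
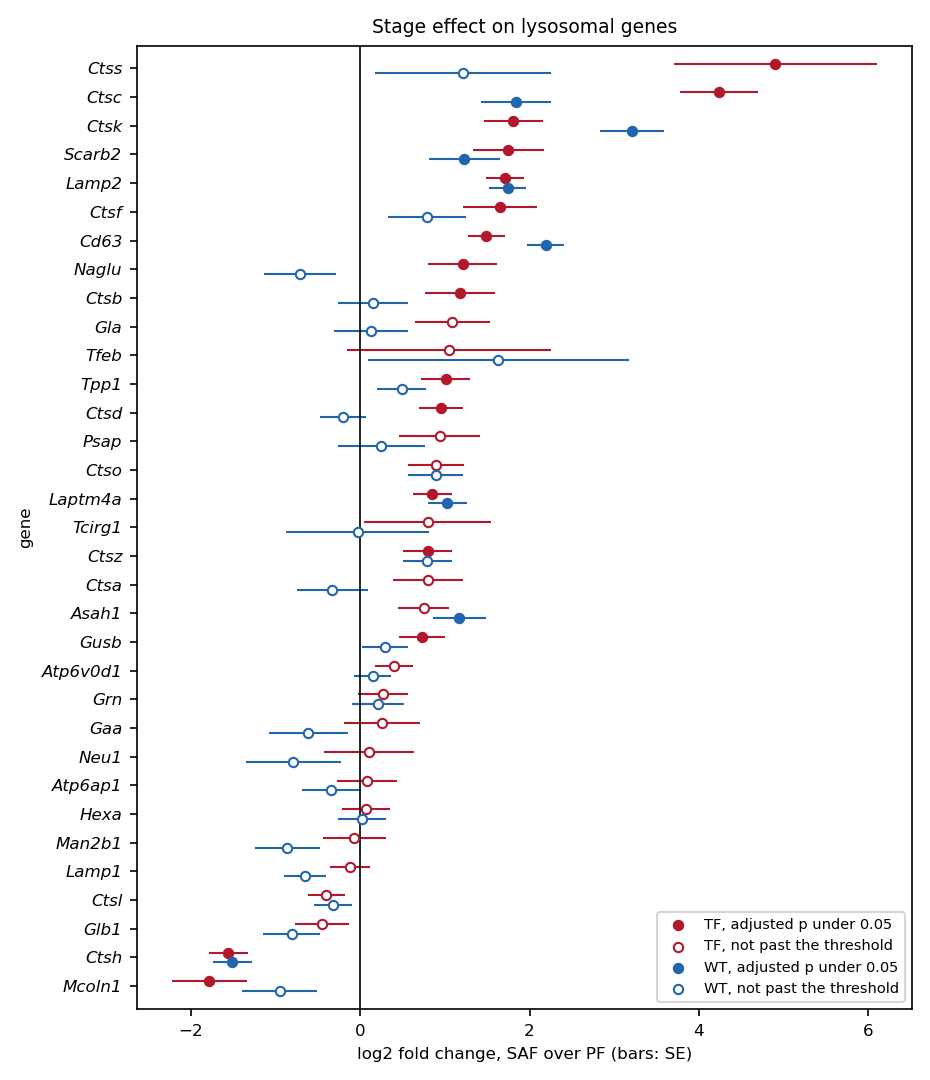
Log2 fold change of SAF over PF (points) with its SE (bars) for each of the 33 genes, in TF and in WT, from edgeR. Filled points passed an adjusted p of 0.05: 16 in TF and 8 in WT.

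Mcoln1 encodes the calcium channel of the lysosomal membrane whose opening activates TFEB (chr8:3500519-3515232), and it fell with stage in TF. It had 16.7 and 11.04 CPM in SAF-TF and 55.2 and 39.98 CPM in PF-TF, against 5.38 and 12.8 CPM in SAF-WT and 14.3 and 20.8 CPM in PF-WT. The PF-TF follicles were the highest of all. The log2 fold change of stage was -1.78 ± 0.44 (SE) in TF (adjusted p = 0.00905) and -0.95 ± 0.44 in WT (adjusted p = 0.120), and that of source in PF was 1.43 ± 0.43 (adjusted p = 0.110). The 3 V-ATPase genes in the set passed no test. Atp6v0d1, a subunit of the membrane sector, varied little, with 76.8 ± 14.99 CPM in SAF-TF and 58.3 ± 3.69 CPM in PF-TF, against 73.5 ± 3.76 CPM in SAF-WT and 66.3 ± 1.30 CPM in PF-WT. Atp6ap1, an accessory protein of the pump, averaged 70.3 ± 19.6 CPM in SAF-TF and 66.4 ± 7.71 CPM in PF-TF, against 29.6 ± 0.396 CPM in SAF-WT and 37.4 ± 19.1 CPM in PF-WT, with a difference of 1.25 ± 0.36 in SAF (adjusted p = 0.0550). Tcirg1, the a3 subunit of osteoclasts and immune cells, averaged 5.08 ± 2.06 CPM in SAF-TF and 2.90 ± 1.14 CPM in PF-TF, against 1.24 ± 1.26 CPM in SAF-WT and 1.25 ± 0.106 CPM in PF-WT.

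Tfeb itself was barely detected. Its raw counts were 22 and 16 in SAF-TF and 0 and 20 in PF-TF, against 4 and 6 in SAF-WT and 1 and 2 in PF-WT, which is 2.42 CPM at most. Both SAF-TF follicles lay above both SAF-WT follicles, while the PF groups overlapped, and no difference passed (adjusted p = 0.374 in SAF and 0.389 in PF).

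The letters before the start sites are given because TFEB and its relatives bind the E-box core CACGTG of the CLEAR motif. RefSeq windows for GRCm38.p6, from 250 bases before to 50 bases after the start, were at hand for 30 of the 33 genes (not for Ctsb, Ctsh and Asah1). CACGTG, which reads the same on both strands, occurred in 11 of these 30, against 8.09% of 27025 genes with a window and 11.1% of the tested genes that have one. The 11 were Ctsf, Ctsl, Ctsa, Ctsd, Gla, Glb1, Gaa, Naglu, Lamp1, Mcoln1 and Atp6v0d1. The longer TCACGTGA, which contains the core, occurred in 5 of 30, against 1.12% of all genes with a window and 2.03% of the tested genes that have one. Of the 10 genes higher in SAF-TF than in SAF-WT, 8 have a window and 6 of these hold CACGTG (Ctsf, Ctsa, Ctsd, Glb1, Naglu and Lamp1), beside 5 of the 22 other genes with a window. For TCACGTGA the counts were 2 of 8 and 3 of 22. Of all genes higher in SAF-TF than in SAF-WT, 606 have a window, of which 13.4% hold CACGTG and 2.97% hold TCACGTGA. The 120 bases before the start of these 6 genes, and of Mcoln1, which holds the core but was not called between sources, are shown 5′ to 3′ on the gene's strand with CACGTG in capitals. For Ctsa the window belongs to a start inside the annotated gene.
Lamp1, chr8:13159041-13159160, plus strand: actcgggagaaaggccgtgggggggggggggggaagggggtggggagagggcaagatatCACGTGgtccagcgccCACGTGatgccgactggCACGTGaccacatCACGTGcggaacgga
Ctsd, chr7:142387828-142387947, minus strand: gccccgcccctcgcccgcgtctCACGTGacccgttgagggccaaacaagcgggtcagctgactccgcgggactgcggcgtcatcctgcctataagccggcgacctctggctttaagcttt
Naglu, chr11:101069974-101070093, plus strand: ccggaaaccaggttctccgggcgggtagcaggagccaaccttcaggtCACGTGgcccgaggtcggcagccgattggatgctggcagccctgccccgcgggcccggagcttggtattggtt
Glb1, chr9:114400958-114401077, plus strand: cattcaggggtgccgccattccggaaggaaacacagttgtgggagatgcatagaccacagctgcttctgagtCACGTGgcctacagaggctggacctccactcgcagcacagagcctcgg
Ctsa, chr2:164833653-164833772, plus strand: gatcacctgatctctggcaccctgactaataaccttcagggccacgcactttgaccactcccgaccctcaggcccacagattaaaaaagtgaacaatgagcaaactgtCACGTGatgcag
Ctsf, chr19:4855045-4855164, plus strand: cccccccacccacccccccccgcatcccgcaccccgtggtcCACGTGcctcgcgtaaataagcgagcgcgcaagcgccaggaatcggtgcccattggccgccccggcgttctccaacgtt
Mcoln1, chr8:3500399-3500518, plus strand: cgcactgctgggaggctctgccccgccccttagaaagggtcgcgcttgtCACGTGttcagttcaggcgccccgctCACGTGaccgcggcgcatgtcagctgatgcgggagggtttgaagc
Lamp1 holds 4 copies within these bases, beginning at -61, -45, -28 and -15 from the start, and Mcoln1 holds 2, beginning at -71 and -45. Naglu, Glb1 and Ctsf hold 1 each, at -73, -48 and -79. Ctsd holds a further copy at -245, and Ctsa another at 5 bases after its start. A match is a description of the letters, and binding was not measured here.

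Other genes of the pathway were read from lists of names, chosen with earlier results of these data known. Their counts stand beside the shares of all genes: between SAF-TF and SAF-WT 4.61% were higher and 5.34% lower, with stage 18.2% rose and 25.0% fell in TF, and 12.7% rose and 22.5% fell in WT. Of 34 other hydrolases and cofactors tested, 7 were higher and 0 lower in SAF-TF than in SAF-WT, with a median log2 fold change of 0.72, against 0.00 over all genes. With stage 10 of the 34 rose and 6 fell in TF, and 9 rose and 6 fell in WT. Gm2a, the activator that presents ganglioside GM2 to beta-hexosaminidase, had 359.6 and 149 CPM in SAF-TF and 11.7 and 9.32 CPM in PF-TF, against 28.5 and 30.05 CPM in SAF-WT and 10.1 and 11.97 CPM in PF-WT. It rose by 4.59 ± 0.42 (log2, SE) with stage in TF (adjusted p = 5.02e-05), and its interaction, 3.19 ± 0.54, passed (adjusted p = 0.0307). Lgmn, the asparaginyl protease that matures cathepsins, had 192 and 72.6 CPM in SAF-TF, against 8.94 and 12.1 CPM in SAF-WT, and was higher by 3.66 ± 0.46 (adjusted p = 0.00402).

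Of 18 other membrane proteins and transporters, 1 rose and 5 fell with stage in TF, and 3 rose and 5 fell in WT, where the share that fell was near that of all genes (25.0% in TF and 22.5% in WT). Cln3, a protein of late endosomal and lysosomal membranes, fell in TF (log2 fold change -1.86 ± 0.27 SE, adjusted p = 5.20e-04) and in WT (-2.51 ± 0.28, adjusted p = 2.27e-04), and Ctns, the cystine transporter, fell in TF (-2.35 ± 0.40, adjusted p = 0.00130). Among 16 other V-ATPase subunits, 8 rose and 3 fell with stage in TF and 4 rose and 6 fell in WT. Of 15 genes that sort enzymes to lysosomes, 1 rose and 6 fell in TF and 1 rose and 5 fell in WT. Sort1, the sorting receptor sortilin, fell in TF (-2.32 ± 0.42, adjusted p = 0.00199) and in WT (-2.80 ± 0.44, adjusted p = 0.00135). Between SAF-TF and SAF-WT, 2 membrane proteins, 3 V-ATPase subunits and 1 sorting gene were higher, while 1 membrane protein, 1 subunit and 0 sorting genes were lower.

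Among 19 genes of the TFEB family and of mTORC1 at the lysosome, 5 rose and 6 fell with stage in TF, 4 rose and 3 fell in WT, and 1 was higher in SAF-TF than in SAF-WT. That gene was Rragd, a Rag GTPase, with 22.7 and 22.3 CPM in SAF-TF against 11.0 and 8.04 CPM in SAF-WT and a difference of 1.24 ± 0.34 (SE, adjusted p = 0.0493). Of 27 autophagy genes, 4 were higher and 0 lower in SAF-TF than in SAF-WT (4.61% and 5.34% of all genes). With stage 7 of the 27 rose and 7 fell in TF, and 5 rose and 10 fell in WT. Atg5, which is needed to form autophagosomes, fell in TF (-1.86 ± 0.19, SE, adjusted p = 9.90e-05) and in WT (-1.38 ± 0.19, adjusted p = 6.95e-04). Map1lc3a, which encodes an LC3 protein of autophagosomes, had 938 and 680.4 CPM in SAF-TF and 139 and 118 CPM in PF-TF, against 244 and 256 CPM in SAF-WT and 152 and 116 CPM in PF-WT. Its interaction of 1.76 ± 0.32 passed (adjusted p = 0.0393), with a stage effect of 2.65 ± 0.24 in TF (adjusted p = 4.71e-05). Of 8 cathepsin inhibitors tested, 5 rose in each source with stage (18.2% of all genes in TF and 12.7% in WT). Between SAF-TF and SAF-WT 0 were higher and 1, Cst9, was lower (-4.75 ± 1.11, SE, adjusted p = 0.0300). Cst9 had 2.53 and 0.563 CPM in SAF-TF, against 6.07 and 78.3 CPM in SAF-WT, so the size rests mostly on SAF-WT replicate 2. Cstb, a cytosolic inhibitor of cysteine cathepsins, rose by 2.55 ± 0.20 in TF (adjusted p = 2.44e-05) and by 1.55 ± 0.19 in WT (adjusted p = 3.74e-04), and Cst3, a secreted one, by 1.43 ± 0.22 (adjusted p = 7.51e-04) and 1.36 ± 0.22 (adjusted p = 0.00142). None of these lists had a call between PF-TF and PF-WT by edgeR.

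In the authors' deposited table for TF, 19 of the 33 genes were called higher and 2 lower in SAF-TF relative to PF-TF, with 24.0% and 16.7% of all listed genes. In the authors' deposited table for WT, 9 were called higher and 1 lower, with 20.7% and 14.0% of all listed genes. All 16 of the TF stage calls made here had the same direction and call there, as did 7 of the 8 WT calls, and no gene was called in opposite directions.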

How the data were processed

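Polyadenylated RNA of single mouse follicles was amplified by the SMARTer Ultra Low Input method, per the labels' protocols. The submitters' processing notes name HISAT2 2.0.1 and the build GRCm38; the read counter, annotation and strand setting: not given in the sources used here. Per the file headers, the authors deposited raw counts per gene in a table per source. The authors also deposited a signal per group, averaged over libraries after scaling each by a factor fixed within its table. The deposited log2 column is the log2 ratio of SAF to PF signal, and the deposited FDR column an adjusted p-value of a test that is not named.

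Counts of the 21997 genes in both tables were analysed together. All per-sample columns could be mapped to labels. Genes were kept by filterByExpr (min.count 10, min.total.count 15), leaving 17925, with all 33 members among them. Tests were quasi-likelihood F tests of edgeR 4.0.16 in R 4.3.3, with TMM factors, 1 mean per group and all 8 libraries, which left 4 residual degrees of freedom and a biological coefficient of variation of 0.303. Tests were two-sided, p-values were adjusted by Benjamini-Hochberg across the 17925 genes, and calls were made at 0.05. A standard error is the log2 fold change over the root of its F value. A count of 0 allows up to 3 counts, 0.301 to 0.393 CPM by library, which covers counting error only.

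The members and lists were chosen with earlier results of these data known. Values in every library are given for up to 6 genes per contrast with the smallest p past the threshold and no overlap, for any past the threshold in the interaction, and for Ctsb, Ctsd, Ctsl, Ctss, Ctsk, Lamp1, Lamp2, Psap and Tfeb. Those of Mcoln1 were added after its values were seen. Up to 3 genes per other list may be named. Alternatives were RLE factors, the authors' scale factors, no filter, the DESeq2 Wald test (1.42.0), a fit of the compared libraries alone, the replicate number as a block, and each library left out. The variance between replicates of a group was 10.2 to 36.8 times that of counting error (chi-square per degree of freedom). Nothing in the labels says that they came from separate animals, so p-values measure only the spread between these follicles.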

Additional observations from a re-analysis of the deposited data

Results flagged for a closer look

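Naglu was flagged because both SAF-TF follicles lay above both PF-TF follicles, while both SAF-WT follicles lay below both PF-WT follicles. The difference between the stage effects was 1.92 ± 0.59 (log2, SE), and its test, the edgeR interaction adjusted over all genes, did not pass (adjusted p = 0.161). Without SAF-TF replicate 1 the TF stage effect itself was 0.64 (adjusted p = 0.349).

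Ctsc was flagged because both SAF-TF follicles lay above both SAF-WT follicles, while both PF-TF follicles lay below both PF-WT follicles. The source effects differed by 2.40 ± 0.58 (adjusted p = 0.0945), and the DESeq2 Wald test called this difference. Ctsk was flagged for the opposite pattern, lower in SAF-TF than in SAF-WT and higher in PF-TF than in PF-WT, with a difference of -1.40 ± 0.50 (adjusted p = 0.221). The macrophage sum and the luteal sum were both higher in SAF-TF than in SAF-WT and lower in PF-TF than in PF-WT, the order of Ctsc. The surface epithelium sum had this order in PF but overlapped in SAF. The stroma sum was lower in TF at both stages, unlike Ctsk. The part of these marker sums in the Ctsc and Ctsk values was not tested.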

How the results depend on the processing

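Over the 5 comparisons, 35 effects of single genes were called. In 479 alternatives of these, 396 kept the call, 83 lost it and 0 changed direction. The call held in every alternative for 12 effects: Cd63, Ctsh, Ctsk and Lamp2 in both stage comparisons, Ctsc, Ctss and Scarb2 with stage in TF, and Laptm4a with stage in WT. Leaving out each library in turn, 6 to 17 genes rose and 1 to 2 fell with stage in TF, and 4 to 9 rose and 1 to 3 fell with stage in WT. Between SAF-TF and SAF-WT 0 to 13 were higher and 0 to 1 lower, between PF-TF and PF-WT 0 to 7 were higher and 0 to 1 lower, and in the interaction 0 to 1 were higher. A group left with 1 library was assumed to vary like the others.

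A fit of only the 4 SAF libraries called 20 genes higher in SAF-TF than in SAF-WT, and the cause was not tested. Apart from the DESeq2 Wald test, the shares of all genes called in the alternative fits are not given here. Counts of the 33 genes in those fits therefore do not show a change relative to all genes. The DESeq2 Wald test called 7 higher and 1 lower in PF-TF than in PF-WT, and 1 in the interaction; the cause was not tested. For stage, the authors' scale factors moved the median of all genes from -0.08 to 0.27 in TF and from -0.20 to 0.14 in WT, with 20 and 10 of the 33 genes higher. The deposited columns hold no such factors, so the values used here are not figures stated by the authors. These factors were set within each table, so no source effect was computed with them.

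With the replicate number as a block, 7 genes were higher and 0 lower in SAF-TF than in SAF-WT, and stage counts stayed within 1.5 times. Deviations of same-numbered libraries correlated between -0.12 and 0.11 across genes, so the numbers were not taken to pair the follicles. The numbers of PF-WT were also crossed, an alternative chosen after seeing the data. In that fit 3 genes were higher in PF-TF and 0 lower, against 0 and 0 with the numbers as labelled. The shares of all genes called in the block and crossed fits are not given. Their counts therefore show no change relative to all genes. Counts of Tfeb, Tcirg1 and Ctss were low in some libraries, which limits the precision of their values.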
